A study of Mus musculus with 6 samples.

Results

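The canonical NF-kB pathway was followed through 10 genes for its kinases and adaptors: Myd88, Irak4, Irak1, Traf6, Map3k7, Tab1, Tab2, Ikbkb, Ikbkg and Cyld. They were taken by gene symbol from the 24015 genes listed in the count files, and all 10 were found and expressed above the filter on low counts. The RNA was that of sorted stem and progenitor cells of mouse acute myeloid leukaemia driven by the fusion MLL-AF9. The 3 LSPCT libraries came from mice given tamoxifen and the 3 LSPC libraries from untreated mice, all with fully developed leukaemia. The leukaemic cells of both groups descend from lin-cKit+ marrow progenitors of NIKERT2 mice, a cross of Rosa-loxp-STOP-loxp-NIK with Rosa-CreERT2, so LSPCT and LSPC cells alike carry MLL-AF9, the silenced kinase gene and the inducible Cre. Tamoxifen lets Cre remove the stop and switches on NIK, the kinase of the noncanonical branch. No vehicle-treated or Cre-only group was analysed here, so effects of tamoxifen, of Cre and of NIK cannot be told apart. The labels give neither the age and sex of the mice nor whether each library is 1 mouse, and p-values therefore measure the spread between libraries, which may be technical.

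In the canonical branch, Toll-like and interleukin-1 receptors recruit the adaptor MyD88, which assembles the IRAK kinases and through them the ubiquitin ligase TRAF6. Ubiquitin chains made by TRAF6 hold the kinase TAK1 and its TAB partners beside the IKK complex, whose kinase IKK-beta then marks the inhibitors of NF-kB for destruction. CYLD is a deubiquitinase that cuts such chains and works as a brake. In myeloid cells this chain carries signals from microbes and inflammatory cytokines. NIK acts in a separate branch, through IKK-alpha, and is known to be held low by TRAF and cIAP proteins.

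Libraries held 19999071 to 22454753 counts in the LSPCT group and 20410001 to 26773176 counts in the LSPC group. Each member had at least 650 counts in every library. Map3k14, the gene of NIK, stood at 129.9, 190.6 and 159.5 CPM (read counts scaled to library size) in the LSPCT libraries, against 26.5, 24.2 and 28.8 CPM in the LSPC libraries, the order the labels give. The progenitor marker genes Kit (126.3 to 193.7 CPM in LSPCT, 117.0 to 137.5 CPM in LSPC) and Cd34 (199.4 to 264.4 CPM in LSPCT, 149.6 to 200.1 CPM in LSPC) were expressed in all 6 libraries. Of the 9 stem and progenitor markers tested, 0 were higher in LSPCT and 2 lower, against 8.96% and 8.24% of all genes tested. The lower ones, named after their values were seen, were Flt3 (log2 fold change -1.20, edgeR adjusted p = 0.00153) and Fcgr3 (-0.49, edgeR adjusted p = 0.00518). Lymphoid markers were also detected. The 6 B and plasma cell markers summed to 26.97 to 55.3 CPM in the LSPCT libraries and to 40.8 to 45.5 CPM in the LSPC libraries, mostly Cd79b, with Pax5 at 0. The 7 T and NK cell markers summed to 8.87 to 25.2 CPM in the LSPCT libraries and to 5.77 to 8.90 CPM in the LSPC libraries, led by Cd3g, with Ncr1 at 0. LSPCT replicate 1 stood apart from LSPCT replicates 2 and 3 on the second principal component (48.2, against -25.8 and -18.6). The summed level of 9 tissue macrophage markers was 1455, 635 and 679 CPM in LSPCT replicates 1 to 3, against 153 to 175 CPM in the LSPC libraries. Most of this sum was Vcam1 and Emr1. Vcam1 had 930, 456 and 457 CPM in the LSPCT libraries and 75.5 to 82.7 CPM in the LSPC libraries. Emr1 had 206, 142 and 147 CPM in the LSPCT libraries and 69.6 to 92.3 CPM in the LSPC libraries. All 8 macrophage markers that were tested were higher in LSPCT. Among them was C1qa, at 92.6, 8.03 and 14.3 CPM in LSPCT replicates 1 to 3 and at 0.339 to 3.63 CPM in the LSPC libraries. C1qa, C1qb, C1qc, Mrc1, Fcgr1 and Cd5l had under 10 counts in LSPC replicate 2. They passed the filter on low counts only through the LSPCT group, so their calls are partly set by the filter. Emr1 and Vcam1 did not depend on it, and Timd4 was not tested. The 8 neutrophil markers summed to 185 to 507 CPM in the LSPCT libraries and to 25.1 to 2042 CPM in the LSPC libraries, and none of them passed in edgeR, where 0 were at an unadjusted p under 0.05. The part of these other cells in the values below was not tested, and in bulk RNA a change in the mix of cells and a change in RNA per cell cannot be told apart.

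Of the 10 members, 1 rose and none fell in LSPCT cells (edgeR quasi-likelihood test, two-sided, Benjamini-Hochberg adjusted p under 0.05 over 12729 genes). Cyld was the gene that rose. Over all genes tested, 17.2% passed by the same rule, 8.96% higher and 8.24% lower, so 1 of 10 is close to the background. DESeq2 and limma voom also called 1 member higher and none lower. At an unadjusted p under 0.05 there were 2 members, Cyld and Ikbkg, against 31.9% of all genes. The groups did not overlap for these same 2 members, both higher in LSPCT, while 18.1% of all genes were higher and 19.6% lower without overlap. The median log2 fold change of the members was -0.08, beside -0.00254 over all genes tested. Of the 10 fitted changes 7 were below 0 and 3 above it, beside 50.4% of all genes below 0; without LSPCT replicate 1 this became 3 below 0 and 7 above it.

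**Figure D1:**
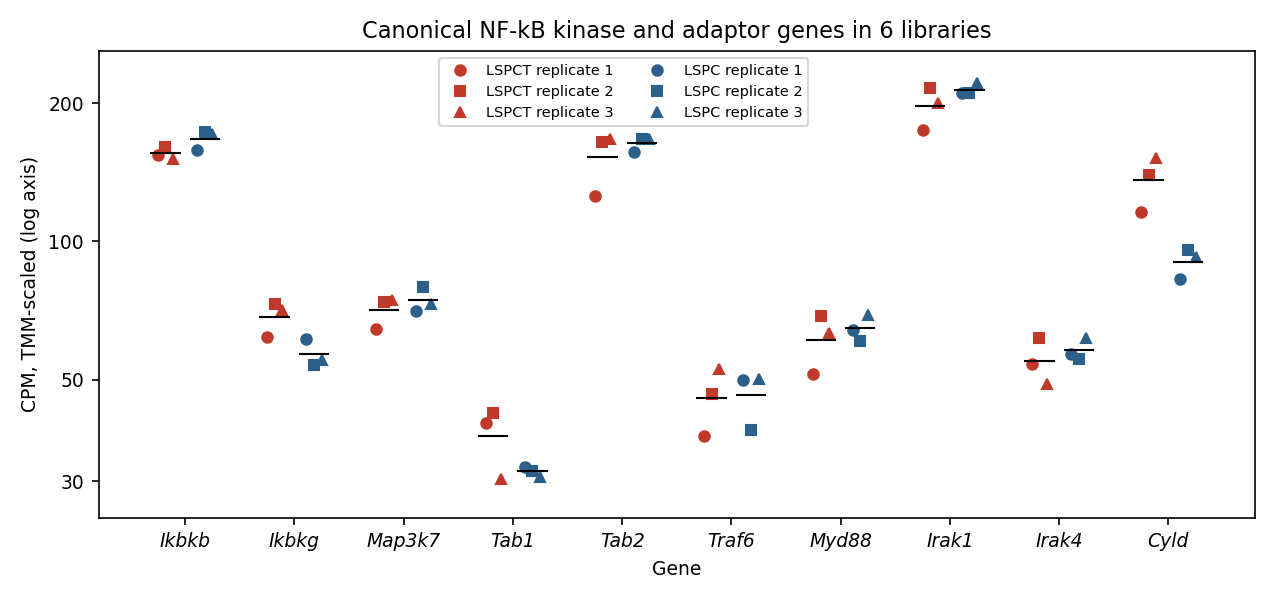
Level of each gene in CPM (log axis) in the LSPCT libraries (red, left of each pair) and the LSPC libraries (blue), with 1 marker shape per replicate number and the group mean as a black line. Cyld and Ikbkg are the genes in which the LSPCT and LSPC libraries do not overlap, and LSPCT replicate 1 is the lowest LSPCT library for 7 of the 10 genes.

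For the 9 members that did not pass, the 95% intervals of the fold change ran from no lower than 0.771 to no higher than 1.47. All 9 intervals thus lay within 1.5-fold in either direction, as they did for 47.5% of all genes tested. Changes smaller than that are not excluded by these libraries. The members were well expressed, between the 53.5th and the 92.6th percentile of average level among genes tested.

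**Figure D2:**
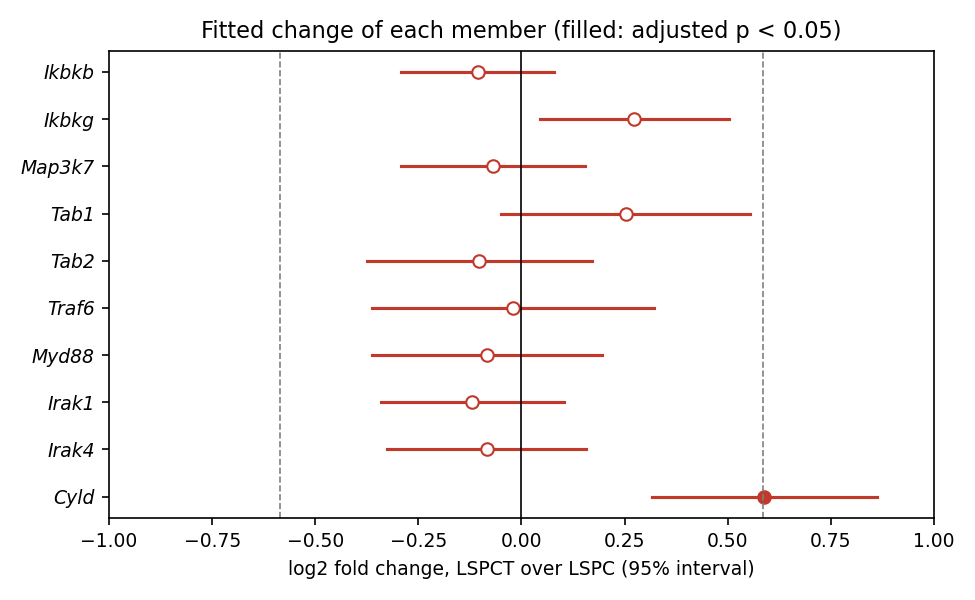
Fitted log2 fold change of LSPCT over LSPC for each member with its 95% interval; filled points passed at an adjusted p under 0.05, and dashed lines mark 1.5-fold in either direction. Only the interval of Cyld, centred on 0.59, reaches beyond a dashed line.

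None of the 4 members just below the receptors passed. Myd88, the adaptor shared by most Toll-like receptors and the interleukin-1 receptor, had 51.3, 68.8 and 63.1 CPM in LSPCT replicates 1 to 3, against 64.2, 60.7 and 69.2 CPM in LSPC replicates 1 to 3. Its LSPCT range enclosed 2 of the 3 LSPC values, and the fold change was 0.944 (95% interval 0.778 to 1.14, edgeR adjusted p = 0.688). Irak4, the kinase that binds MyD88 first, had 54.0, 61.5 and 48.9 CPM in the LSPCT libraries and 57.0, 55.6 and 61.6 CPM in the LSPC libraries. The groups overlapped, with a fold change of 0.944 (95% interval 0.798 to 1.12, edgeR adjusted p = 0.638). Irak1, which IRAK4 phosphorylates, had 174, 216 and 200.03 CPM in the LSPCT libraries and 209.98, 210.3 and 220.8 CPM in the LSPC libraries. It was lowest in LSPCT replicate 1, and the fold change was 0.921 (95% interval 0.790 to 1.07, edgeR adjusted p = 0.449). Traf6, the ubiquitin ligase that IRAK1 engages, had 37.7, 46.6 and 52.7 CPM in the LSPCT libraries and 50.01, 38.8 and 50.05 CPM in the LSPC libraries. Traf6 had the smallest fitted change of the 10 members, a fold change of 0.987 (95% interval 0.778 to 1.25, edgeR adjusted p = 0.946), and its sign turned with the scaling and with the library left out.

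The TAK1 complex and the IKK complex each held 1 gene with a fitted value above 0 beside others below it. Map3k7, which encodes TAK1, had 64.3, 73.9 and 74.7 CPM in the LSPCT libraries and 70.6, 79.7 and 73.0 CPM in the LSPC libraries (fold change 0.953, 95% interval 0.817 to 1.11, edgeR adjusted p = 0.675). Tab2, an adaptor that binds ubiquitin chains, had 125.8, 164 and 167 CPM in the LSPCT libraries and 156, 167 and 167 CPM in the LSPC libraries (fold change 0.932, 95% interval 0.771 to 1.13, edgeR adjusted p = 0.611). LSPCT replicate 1 was the lowest library for Map3k7 and for Tab2. Tab1, an activating partner of TAK1, had 40.2, 42.3 and 30.4 CPM in the LSPCT libraries and 32.3, 31.7 and 30.7 CPM in the LSPC libraries. LSPCT replicates 1 and 2 lay above every LSPC library and LSPCT replicate 3 below them all. The fold change of Tab1 was 1.19 (95% interval 0.967 to 1.47, edgeR adjusted p = 0.231); without LSPCT replicate 3 its log2 fold change was 0.40 and passed (edgeR adjusted p = 0.0375), and with any other library left out it was 0.16 to 0.27 and did not.

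Ikbkb, which encodes the kinase IKK-beta, had 154, 161 and 151 CPM in the LSPCT libraries and 158, 173 and 171 CPM in the LSPC libraries. Its groups overlapped only by LSPCT replicate 2 lying above LSPC replicate 1, and the fold change was 0.929 (95% interval 0.817 to 1.06, edgeR adjusted p = 0.414). Ikbkg, the gene of the regulatory subunit NEMO, had 61.8, 73.1 and 70.9 CPM in the LSPCT libraries, against 61.3, 53.7 and 55.2 CPM in the LSPC libraries. The groups did not overlap, though LSPCT replicate 1 and LSPC replicate 1 lay close together. Its fold change was 1.21 (95% interval 1.03 to 1.42), and it missed the threshold over all genes (edgeR adjusted p = 0.10, unadjusted p = 0.0250). Without LSPCT replicate 1 the log2 fold change of Ikbkg was 0.35 and passed (edgeR adjusted p = 0.0202); in the other 14 alternatives it did not pass. In the mouse annotation GENCODE M21 an exon of Ikbkg overlaps an exon of G6pdx, on the opposite strand, over 418 bases. As the strand setting of the counts is not given, reads of either gene there cannot be told apart. G6pdx had 154, 188 and 194 CPM in the LSPCT libraries and 187, 194 and 219 CPM in the LSPC libraries, and did not pass (edgeR adjusted p = 0.372). The part of the shared bases in the values of Ikbkg was not tested. Myd88 and Irak4 also share exon bases with genes on the other strand, Acaa1a over 290 bases and Twf1 over 395 bases, and neither of these neighbours passed.

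Cyld, the deubiquitinase, was the member that rose. It had 115.6, 139.6 and 152 CPM in LSPCT replicates 1 to 3, against 82.9, 95.6 and 92.2 CPM in LSPC replicates 1 to 3. Every LSPCT library lay above every LSPC library. Cyld averaged 136 ± 18.5 CPM in the LSPCT group and 90.2 ± 6.59 CPM in the LSPC group (SD, n = 3 each), or 0.59 as a log2 fold change (standard error, SE, 0.12; 95% interval 0.32 to 0.86; edgeR adjusted p = 0.0125). That is a rise of 50.4%. The size of this change was above that of 77.8% of all genes tested. LSPCT replicate 1, in which the macrophage markers were highest, had the lowest Cyld level of the LSPCT group, and without it the log2 fold change was 0.70 (edgeR adjusted p = 0.00133). Without LSPC replicate 1, the library with the lowest Cyld level, the log2 fold change was 0.53 and missed the threshold (edgeR adjusted p = 0.0666). With any other library left out it was 0.51 to 0.63 and passed (edgeR adjusted p 0.0368 to 0.0428).

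**Figure D3:**
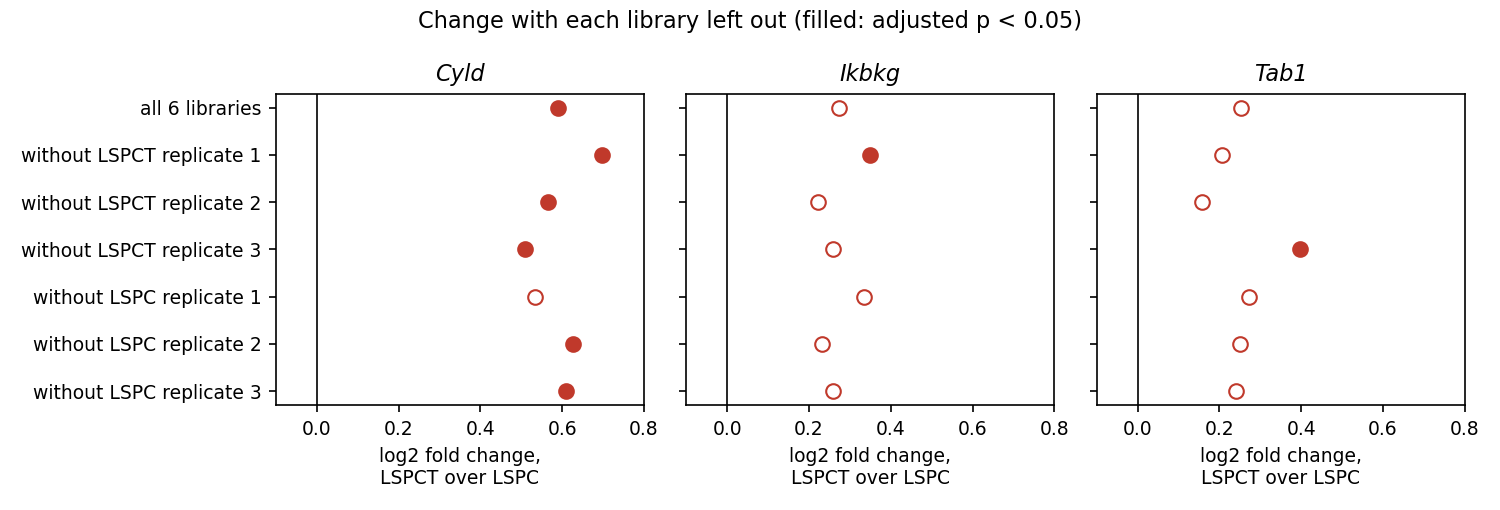
Log2 fold change of LSPCT over LSPC for Cyld, Ikbkg and Tab1 with all 6 libraries and with each library left out; filled points passed at an adjusted p under 0.05. Cyld passes in 6 of 7 fits, Ikbkg without LSPCT replicate 1 (0.35) and Tab1 without LSPCT replicate 3 (0.40).

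The promoter sequences of Cyld and Map3k7 are shown because both hold a match to the binding motif of NF-kB, the factor that this pathway releases, while Cyld rose and Map3k7 did not pass. They are RefSeq windows of the build GRCm38.p6, from 250 bases before to 50 bases after the gene's start, read 5' to 3' on the gene's strand, with the motif in capitals as it reads on that strand. The counts were made on another build, mm9, so the windows serve for their letters only. Cyld lies at chr8:88696778-88697077 on the plus strand and Map3k7 at chr4:31963857-31964156 on the plus strand.
Cyld: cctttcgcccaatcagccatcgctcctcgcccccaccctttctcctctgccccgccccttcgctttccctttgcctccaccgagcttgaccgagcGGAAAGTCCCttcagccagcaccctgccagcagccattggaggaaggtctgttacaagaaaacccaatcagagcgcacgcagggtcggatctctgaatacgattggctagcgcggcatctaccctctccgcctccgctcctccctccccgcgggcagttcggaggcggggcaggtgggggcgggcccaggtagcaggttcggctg
Map3k7: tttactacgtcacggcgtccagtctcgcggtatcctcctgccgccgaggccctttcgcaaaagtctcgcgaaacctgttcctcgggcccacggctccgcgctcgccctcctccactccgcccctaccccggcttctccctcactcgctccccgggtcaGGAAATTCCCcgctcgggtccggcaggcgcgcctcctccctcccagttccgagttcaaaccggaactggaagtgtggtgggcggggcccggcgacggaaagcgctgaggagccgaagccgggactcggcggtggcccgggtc

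The capitals of Cyld, GGAAAGTCCC, are the reverse complement of GGGACTTTCC, the classical kB decamer, and begin 155 bases before the gene's start. This decamer, as read from the Cyld window, was then looked for in every window. The capitals of Map3k7, GGAAATTCCC, match the wider NF-kB consensus but not that decamer, and begin 92 bases before the start. Windows were found for 8 of the 10 members, all but Ikbkb and Tab1. With both strands searched, Irak1 also held 1 site that matched the wider consensus, and the windows of Ikbkg, Tab2, Traf6, Myd88 and Irak4 held none. The wider consensus, of which the decamer is one form, was found in 8.46% of all 32851 windows, and the decamer in 0.155%. Counted by gene, as for the members, the consensus was found in 12.2% of the 9631 tested genes with a window, and the decamer in 0.249%. A match describes the letters only and shows neither binding nor a cause.

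Cyld was thus 1 of 24 tested genes with the decamer in a window, out of 9631 tested genes that have one. Of these 24, 10 were higher in LSPCT, 2 were lower (Csf1, log2 -1.60, and Lpar2, log2 -0.78) and 12 did not pass. Among all tested genes with a window, 8.74% were higher and 8.08% lower. The set was drawn up from the Cyld window after the changes were known, so Cyld is in it by choice and no test was made on it. Genes of this set are named after their values were seen. Without LSPC replicate 1 the number that were higher was 5, and without LSPCT replicate 1 it was 13. With genes kept by CPM above 1 in 3 libraries it was 9. Slamf8, 1 of the 10, had means of 1.54 CPM in LSPCT and 0.174 CPM in LSPC, so it passed the filter on low counts only through the LSPCT group. Besides Cyld the genes that were higher included Nfkb2, the precursor of p52, with a mean of 423 CPM in LSPCT and 37.0 CPM in LSPC. Ltb, a lymphotoxin gene, had means of 113 CPM in LSPCT and 3.51 CPM in LSPC, and B2m, the light chain of MHC class I, 1422 CPM in LSPCT and 769 CPM in LSPC. The change of Cyld (log2 0.59) was among the smaller of the 10, above those of Birc5 (0.43) and Ifngr2 (0.54) and below the other 7, without a test of the differences.

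**Figure D4:**
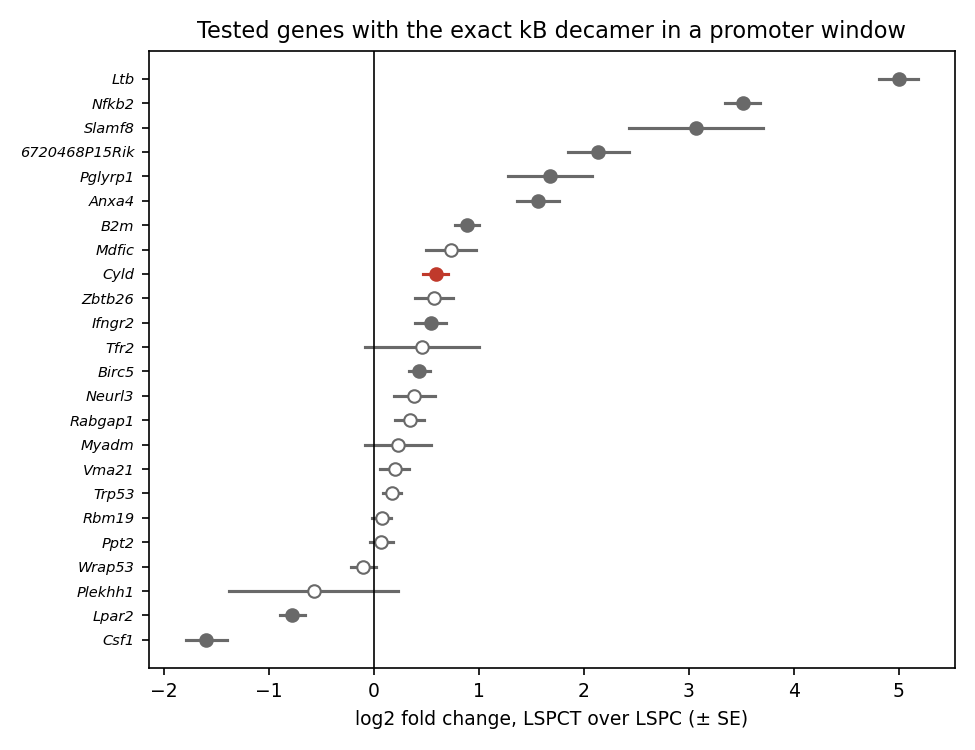
Fitted log2 fold change of LSPCT over LSPC, with its SE, for the 24 tested genes that have the kB decamer in a promoter window; filled points passed at an adjusted p under 0.05 and Cyld is red. Most points lie above 0, from 0.43 to 4.9986 among the 10 that were higher, and 2 of the lower ones passed.

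Because a ratio of 2 genes within a library does not depend on scaling, the balance between members was compared for 6 pairs. With 3 libraries against 3, a two-sided exact permutation test cannot go below p = 0.10, so no pair could pass. Relative to Cyld, Map3k7 was lower in LSPCT than in LSPC by 0.65 on the log2 scale (difference -0.65), and all 3 LSPCT libraries lay below all 3 LSPC libraries (exact permutation p = 0.10, adjusted p = 0.20 over the 6 pairs). Traf6 relative to Cyld differed by -0.61 and the groups did not overlap (exact permutation p = 0.10, adjusted p = 0.20). Cyld itself rose by 0.59, while the log2 fold changes of Map3k7 and Traf6 were -0.07 and -0.02. These 2 ratios therefore mostly repeat the change of Cyld. Ikbkb relative to Ikbkg differed by -0.38, again without overlap (exact permutation p = 0.10, adjusted p = 0.20). In the other 3 pairs the groups overlapped: Tab1 relative to Tab2 differed by 0.35 (exact permutation p = 0.40), Irak1 relative to Irak4 by -0.04 (p = 0.80) and Ikbkb relative to Chuk, the gene of IKK-alpha, by 0.01 (p = 1.0).

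LSPCT replicate 1 was lower than the mean of LSPCT replicates 2 and 3 for 9 of the 10 members, against 50% of all genes tested. It was the lowest LSPCT library for 7 members, against 39.9% of all genes. The log2 difference was -0.40 for Tab2, -0.39 for Traf6, -0.36 for Myd88 and -0.33 for Cyld, while Tab1 was higher by 0.17. The macrophage markers were highest in this same library. Within the LSPC group the SD of log2 CPM was between 0.04 and 0.21, with Traf6 the most variable, and within the LSPCT group between 0.04, for Ikbkb, and 0.26, for Tab1.

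Between genes, levels were compared as CPM per kilobase of exon, with exon lengths of the GENCODE M21 transcripts that are paired with a RefSeq mRNA. Irak1 was highest, at 49.8 ± 5.32 in LSPCT and 54.1 ± 1.56 in LSPC (SD, n = 3 each). Next came Tab2 at 34.8 ± 5.24 in LSPCT and 37.3 ± 1.37 in LSPC, Ikbkb at 34.3 ± 1.07 in LSPCT and 36.9 ± 1.84 in LSPC and Myd88 at 31.2 ± 4.55 in LSPCT and 33.0 ± 2.18 in LSPC. Tab2 overlapped Ikbkb, and Ikbkb overlapped Myd88, in both groups. Irak4 followed at 19.4 ± 2.25 in LSPCT and 20.5 ± 1.12 in LSPC. Cyld stood at 16.7 ± 2.27 in LSPCT and 11.1 ± 0.809 in LSPC. In the LSPCT group it overlapped Irak4 above it and lay clear of Map3k7, whose level was 12.3 ± 1.0007 in LSPCT and 12.9 ± 0.819 in LSPC. In the LSPC group it lay clear of Irak4, and its mean was below that of Map3k7. Tab1 (12.7 ± 2.15 in LSPCT, 10.7 ± 0.266 in LSPC), Ikbkg (9.46 ± 0.826 in LSPCT, 7.83 ± 0.554 in LSPC) and Traf6 (7.40 ± 1.22 in LSPCT, 7.50 ± 1.05 in LSPC) had the lowest means over all 6 libraries. In the LSPCT group, however, the mean of Map3k7 lay below that of Tab1, with overlap between these genes. Ikbkg and Traf6 overlapped in both groups. The order rests on the lengths used: with all annotated exons, which give Ikbkb 19.1 instead of 4.53 kilobases, Ikbkb moves from rank 3 to rank 8. Map3k7 moves from rank 7 to rank 4, above Cyld, which moves from rank 6 to rank 7, and Tab1 moves from rank 8 to rank 6. The separation of Cyld from Map3k7 in the LSPCT group therefore holds for the first set of lengths only.

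The relatives of the members were described from lists of pathway genes, as counts without a set test. Among the IRAK genes, Irak1 and Irak4 did not pass and Irak2 and Irak3 rose. Irak3, which encodes IRAK-M, a brake on this step, had 110.3, 87.9 and 87.1 CPM in the LSPCT libraries, against 46.6, 46.9 and 50.5 CPM in the LSPC libraries. The groups were far apart, and the log2 fold change was 0.99 (SE 0.11, edgeR adjusted p = 0.000995). Per kilobase Irak3 stood at 29.5 ± 4.08 in LSPCT, against 14.9 ± 0.670 in LSPC (SD, n = 3 each). Irak2, a kinase of sustained signalling, rose by 0.57 (edgeR adjusted p = 0.0203) and missed the threshold without LSPCT replicate 2 (edgeR adjusted p = 0.0550). In all, 5 of 15 tested adaptor and IRAK-level genes rose and 2 fell, with a median log2 fold change of 0.06. Over all genes tested, 8.96% were higher and 8.24% lower. The others that rose were Traf2 (log2 0.50), Sarm1 (1.48) and Traf1 (2.16), and those that fell were Ripk1 (-0.47), a kinase adaptor of TNF receptors, and Tollip (-0.31). Traf1 had 23, 73 and 74 counts in the LSPCT libraries and 9, 8 and 25 counts in the LSPC libraries. It thus passed the filter on low counts only through the LSPCT group, and limma voom did not call it (adjusted p = 0.052). Sarm1 was no longer called without LSPCT replicate 2, LSPC replicate 2 or LSPC replicate 3 (adjusted p up to 0.0701), Traf1 without LSPCT replicate 2 or 3 or LSPC replicate 1 or 2 (adjusted p up to 0.131) and Tollip without any 1 library but LSPCT replicate 1 (adjusted p up to 0.163). Irak2, Traf1 and Tollip were named after their values were seen. Traf6 did not pass beside Traf2, a ubiquitin ligase adaptor of TNF receptors, which had 71.6, 80.8 and 71.3 CPM in the LSPCT libraries and 55.6, 52.3 and 50.8 CPM in the LSPC libraries.

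At the level of the kinases, 2 of 11 tested relatives rose and none fell (median log2 fold change -0.07), while 5 were at an unadjusted p under 0.05. Over all genes tested, 8.96% were higher, 8.24% lower and 31.9% at an unadjusted p under 0.05. Ikbke, the gene of IKK-epsilon, a kinase of interferon induction, had 63.0, 104.9 and 90.5 CPM in the LSPCT libraries, against 40.6, 39.2 and 47.3 CPM in the LSPC libraries (log2 1.02, SE 0.18, edgeR adjusted p = 0.00713). Tank, a scaffold for that kinase, had 61.6, 74.9 and 95.3 CPM in the LSPCT libraries and 44.3, 36.4 and 43.1 CPM in the LSPC libraries (log2 0.90, SE 0.16, edgeR adjusted p = 0.00779). Both were lowest among the LSPCT libraries in replicate 1 and did not overlap between groups. Chuk (log2 -0.10, edgeR adjusted p = 0.645) and Tbk1 (log2 -0.05, edgeR adjusted p = 0.745), which encode IKK-alpha and the closest relative of IKK-epsilon, did not pass, as Ikbkb and Ikbkg did not. Tab3, a close relative of Tab2, had a log2 fold change of 0.36 that missed the threshold (edgeR adjusted p = 0.0899). Tbk1 and Tab3 were named after their values were seen.

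**Figure D5:**
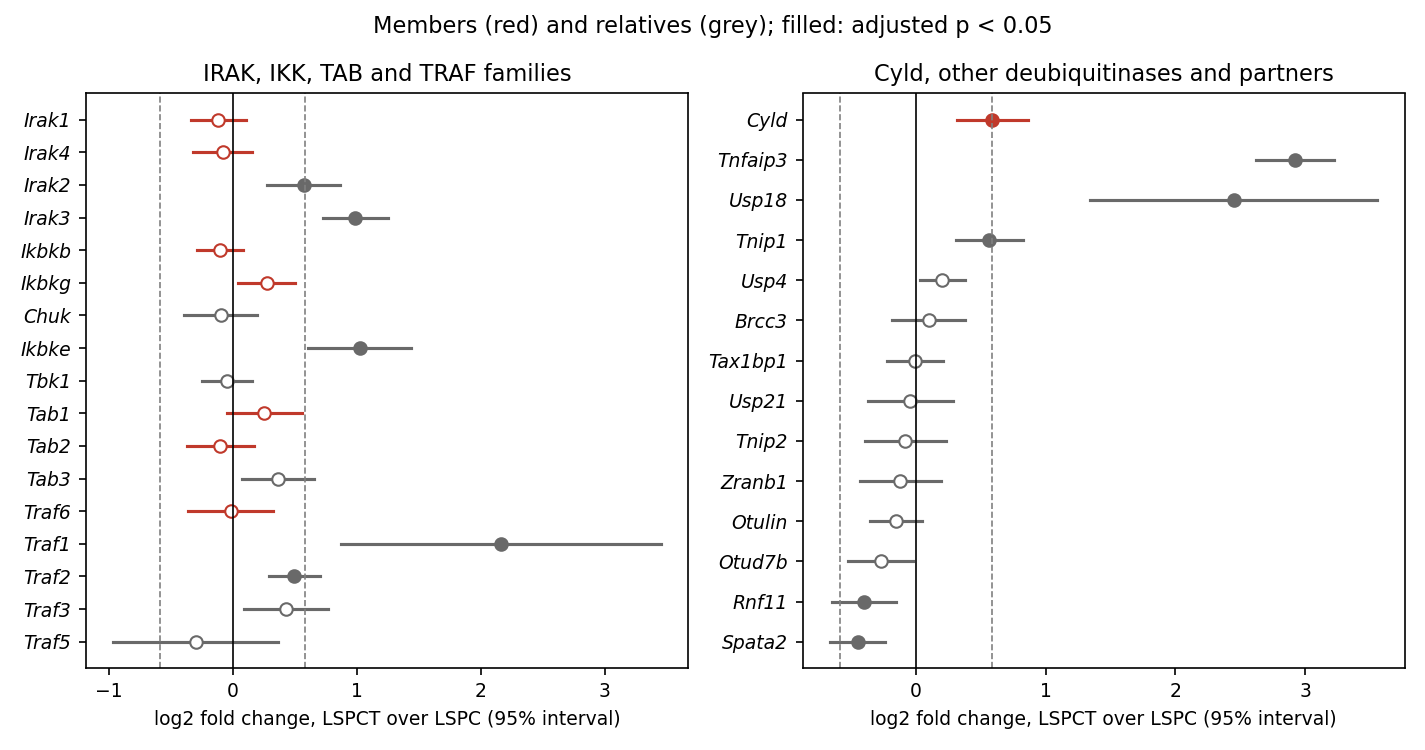
Fitted log2 fold changes of LSPCT over LSPC with 95% intervals, members in red and relatives in grey, for the IRAK, IKK, TAB and TRAF families (left) and for Cyld with other deubiquitinases and their partners (right); filled points passed at an adjusted p under 0.05. Irak3 (0.99), Ikbke (1.02) and Tnfaip3 (2.92) stand to the right of the members, whose points lie between -0.12 and 0.59.

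Cyld was also set beside other genes of ubiquitin editing. Of 13 tested deubiquitinases and partners, 3 rose and 2 fell, with a median log2 fold change of -0.04, beside 8.96% higher and 8.24% lower over all genes. Tnfaip3, the ubiquitin-editing brake induced by NF-kB, rose most, with 157, 128 and 159 CPM in the LSPCT libraries, against 18.05, 22.2 and 18.3 CPM in the LSPC libraries (log2 2.92, SE 0.13, edgeR adjusted p = 1.78e-05). Its partner Tnip1 rose by 0.57 on the log2 scale (edgeR adjusted p = 0.0116), close to the change of Cyld, and Usp18, which removes the ubiquitin-like protein ISG15, by 2.45 (edgeR adjusted p = 0.0114). Counts of Usp18 were low, at 166, 105 and 178 in the LSPCT libraries and 9, 35 and 50 in the LSPC libraries. Spata2, which joins CYLD to the linear ubiquitin ligase complex, fell: it had 35.0, 35.8 and 34.7 CPM in the LSPCT libraries, against 53.1, 45.6 and 45.4 CPM in the LSPC libraries (log2 -0.45, edgeR adjusted p = 0.0142; 0.0710 without LSPC replicate 1). Rnf11, a partner of A20 named after its value was seen, fell by 0.40 (edgeR adjusted p = 0.0382), which was lost with any library other than LSPCT replicate 1 left out (adjusted p up to 0.138). Of 12 tested genes that build ubiquitin chains 2 rose and none fell (median log2 fold change 0.10), against the same shares over all genes. At an unadjusted p under 0.05 there were 3, against 31.9% of all genes. DESeq2 and limma voom called none of the kinase or chain-building lists lower. Birc3 (log2 2.02) and Birc2 (log2 0.78), the cIAP ubiquitin ligases, rose, while Ube2n, the ubiquitin-conjugating partner of TRAF6, likewise named after its value was seen, had a log2 fold change of 0.11 that did not pass (edgeR adjusted p = 0.542).

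Upstream of the members, 5 of 16 tested receptor genes rose and 2 fell, with a median log2 fold change of 0.49. Over all genes tested, 8.96% were higher and 8.24% lower. Tlr2 rose by 1.33 and Tlr1, its partner, by 0.43 on the log2 scale, and Tlr4, Il1r1 and Tlr3 also rose; the last 3 were named after their values were seen. Tlr3 had 14, 14 and 19 counts in the LSPCT libraries and 0, 0 and 4 counts in the LSPC libraries, so it passed the filter on low counts only through the LSPCT group; with genes kept by CPM above 1 in 3 libraries it was not tested and 4 receptors rose. Tlr3 and Tlr4 missed the threshold without LSPCT replicate 2 or 3 or LSPC replicate 1 or 2 (adjusted p up to 0.13), and Il1r1 without any 1 library but LSPCT replicate 1 (adjusted p up to 0.106). Tnfrsf1a (log2 -0.46) and Cd14 (log2 -1.47), a coreceptor of TLR4, fell. Tlr1 missed the threshold without LSPC replicate 2 (edgeR adjusted p = 0.0548), Tnfrsf1a without LSPC replicate 1 or 3 (adjusted p up to 0.0756), and Cd14 without LSPCT replicate 2 or 3 or LSPC replicate 1 or 3 (adjusted p up to 0.0627).

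The genes with the pattern most like that of Cyld over the 6 libraries, by Pearson correlation of log2 CPM among 9329 other genes with an average log2 CPM of at least 3, were Rnf145, Serinc3 and Krcc1, with r of 0.994, 0.993 and 0.993. Each was higher in every LSPCT library than in any LSPC library and lowest in replicate 1 within both groups, as Cyld was. Rnf145, a ubiquitin ligase gene, had 52.4, 66.0 and 68.0 CPM in the LSPCT libraries and 38.4, 42.7 and 43.5 CPM in the LSPC libraries. The coefficients describe these libraries, which share the group difference and the standing of replicate 1, and carry no test.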

How the data were processed

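The 3 LSPCT and 3 LSPC RNA sequencing libraries were grouped by their titles. The deposited files hold raw counts per gene symbol, as whole numbers. The submitters' processing notes name the build mm9, TopHat2 2.1.0, featureCounts, FastQC and DESeq2. For the annotation, strand setting and handling of multi-mapped reads, nothing is given in the sources used here. Unstranded counting would mix overlapping genes, and dropping multi-mapped reads lowers genes with close copies: Hba-a1, Hba-a2, Hbb-b1 and Hbb-b2 had no count in any library.

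In edgeR 4.0.16 under R 4.3.3, TMM factors were used, filterByExpr (at least 10 counts) kept 12729 of 24015 genes, and LSPCT was compared with LSPC by the quasi-likelihood F test over all genes, with group as the only term and a threshold of 0.05. SE was obtained by dividing the size of the log2 fold change by the root of F, and 95% intervals use the total degrees of freedom. CPM are TMM-scaled. Ratios of gene pairs were compared with exact permutation tests over libraries.

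The members and gene lists were chosen with earlier results of these data known. Named genes are the 10 members, up to 4 passing genes with the smallest p per pathway list, the 3 genes most like each member that passed, Chuk and Map3k14; others are said to be named after their values were seen. Alternatives were DESeq2 1.42.0, voom of limma 3.58.1, other scaling (RLE, upper quartile, none), other filters (none, or CPM over 1 in 3 libraries), glmTreat against a 1.5-fold change, the replicate number as a block and each library left out. The count of genes with the kB decamer was added after seeing the data. The fits were tested on simulated data. No 2 libraries agreed within sampling noise (chi-square per degree of freedom at least 11.2).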

Additional observations from a re-analysis of the deposited data

How the results depend on the processing

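The fits below are those of the report with 1 choice changed. Cyld kept its direction in all 15 alternatives (log2 0.51 to 0.70) and passed in 13; it was not called by glmTreat against 1.5-fold (log2 0.59) or without LSPC replicate 1. Ikbkg was 0.22 to 0.35 and Tab1 0.16 to 0.40 over the leave-one-out fits. The sign of other members turned: Traf6 was 0.013 with upper quartile factors and -0.14 to 0.11 with a library left out, where Map3k7 was -0.10 to 0.00196, Tab2 -0.16 to 0.023, Myd88 -0.18 to 0.032 and Irak4 -0.18 to 0.00239. Among the ratios with a library left out, Irak1 to Irak4 was -0.13 to 0.042 and Ikbkb to Chuk -0.092 to 0.16; the cause was not tested.

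Members that rose numbered 0 to 2 and members that fell 0 with a library left out, and none rose under the required 1.5-fold change, by which 420 of all genes were higher and 227 lower. With a library left out, 586 to 1657 of all genes were higher and 443 to 1592 lower, the lowest without LSPC replicate 1 and the highest without LSPCT replicate 1. With a library left out, receptors gave 1 to 6 higher and 0 to 2 lower, adaptors 2 to 6 and 1 to 3, kinases 2 to 3 higher, chain builders 2 to 3 higher, deubiquitinases and partners 3 higher and 0 to 2 lower, the CARD-BCL10-MALT1 genes 1 to 3 higher and the MAPK branch 1 higher and 0 to 4 lower. Under the required 1.5-fold change 1 receptor, 1 adaptor and 1 chain builder were higher, 0 genes of the kinase, CARD-BCL10-MALT1 and MAPK lists were higher, and 0 receptors, adaptors, deubiquitinases and MAPK genes were lower. Deubiquitinases that fell numbered 1 with upper quartile factors and 1 with no filter, and MAPK genes that fell 2 with DESeq2.

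Deviations from the group mean had correlations of 0.118, -0.115 and 0.106 between same-numbered libraries of the LSPCT and LSPC groups. Between differently numbered libraries of the LSPCT and LSPC groups they were -0.168 to 0.14. With 3 libraries per group these values cannot settle whether the replicate numbers pair the samples, and the labels do not say. With the replicate block Cyld was 0.58 (edgeR adjusted p = 0.0116), 1 adaptor and 1 deubiquitinase partner fell, and the exact p of the pair ratios could not go below 0.25.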

Other observations

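Side branches of the pathway were not described above. Their counts stand beside 8.96% higher, 8.24% lower and 31.9% at an unadjusted p under 0.05 over all genes tested in edgeR. CARD-BCL10-MALT1 and protein kinase C genes carry antigen receptor and C-type lectin signals to the same IKK complex. Of the 8 tested, 2 rose in LSPCT and none fell in edgeR, with 4 at an unadjusted p under 0.05 and a median log2 fold change of 0.34. DESeq2 and limma voom also called none lower. Prkcd had 529, 631 and 581 CPM in the LSPCT libraries, against 356, 348 and 390.4 CPM in the LSPC libraries (log2 0.67, edgeR adjusted p = 0.00235). Prkcb rose by 0.45 on the log2 scale (edgeR adjusted p = 0.0122), a call that was lost without LSPC replicate 1 or 2 (adjusted p up to 0.0655). Of 11 tested genes of the MAPK branch, which TAK1 also drives, Mapkapk2, the kinase below p38, rose and Map2k6, a kinase above p38, fell. The median log2 fold change of this list was -0.15, and 10 of the 11 fitted changes were below 0, beside 50.4% of all genes. Mapkapk2 had 680.4, 769.7 and 757 CPM in the LSPCT libraries, against 518, 501 and 503 CPM in the LSPC libraries (log2 0.53, edgeR adjusted p = 0.00319). Map2k6 had 9.996, 8.12 and 6.86 CPM in the LSPCT libraries, against 15.1, 16.7 and 11.8 CPM in the LSPC libraries (log2 -0.80, edgeR adjusted p = 0.0347), and missed the threshold without LSPCT replicate 2 or 3 or LSPC replicate 1 or 2 (adjusted p up to 0.127). In the same list, Jun and Fos, immediate early genes named after their values were seen, did not pass and varied most within the LSPCT group. Jun had 488, 5.25 and 8.72 CPM in LSPCT replicates 1 to 3, against 277, 367 and 63.0 CPM in LSPC replicates 1 to 3. Fos had 213, 8.54 and 10.05 CPM in LSPCT replicates 1 to 3, against 299.8, 296 and 106 CPM in LSPC replicates 1 to 3. LSPCT replicate 1 stood far above the other LSPCT libraries for both genes.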
